A study of Mus musculus with 20 samples.

Results

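Cdkn1a, which encodes the cyclin-dependent kinase inhibitor p21, was examined in mouse gastrocnemius beside 8 genes of related function. They are its family members Cdkn1b and Cdkn1c, the p53 targets Ccng1 and Mdm2, the stress-induced genes Gadd45a, Gadd45b and Gadd45g, and the clock-controlled kinase gene Wee1. The 9 genes are given by symbol, and each matched 1 of the 53311 rows of the count table. Cdkn1a was picked because its level differed strongly between the genotype labels. Its genotype differences are therefore given as a description with no test. The other 8 genes were picked by family or pathway. They and the gene lists below were chosen with earlier results of these data known, so their tests are not independent of that choice.

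The series compared gastrocnemius, a fast calf muscle, from mice carrying the Cre+:iMSBmal1 fl/fl genotype, that is, a Cre transgene and floxed alleles of the clock gene Bmal1, in all 4 groups. There were 5 samples per group: vehicle at rest, vehicle after exercise, knockout treatment at rest and knockout treatment after exercise. All were collected at zeitgeber time 13 h, and the exercised mice were sampled 1 h after a 30-min treadmill run. The labels do not give the age or sex of the mice, the promoter of the Cre or the agent that the vehicle carried, and do not say whether each sample is 1 animal, so p-values measure the spread between these samples.

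p21 binds cyclin and cyclin-dependent kinase complexes and holds cells in G1, and its gene is the classic target of the tumour suppressor p53. In skeletal muscle p21 is best known for cell cycle exit when myoblasts become post-mitotic fibres. GADD45 proteins bind upstream stress kinases and p21 itself, and Gadd45a is also known as a gene that denervated muscle turns on. WEE1 is the kinase that restrains mitotic entry by phosphorylating CDK1, and its transcription in liver is driven by the CLOCK and BMAL1 heterodimer.

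The sequence just before the transcription start is shown for Cdkn1a and for the p53 targets Ccng1 and Mdm2, because all of them carry p53-type motifs but their RNA levels differed in behaviour. Each run is the 250 bases upstream of a RefSeq start in GRCm38.p6, read 5′ to 3′ on the gene's strand, with matches to the p53 decamer, the repeat unit of the p53 response element, in capitals. Cdkn1a has 2 starts in that table, at chr17:29090729-29090978 and chr17:29093519-29093768 on the plus strand. The Ccng1 run is chr11:40755287-40755536 and the Mdm2 run chr10:117710759-117711008, both on the minus strand.
Cdkn1a, upstream start: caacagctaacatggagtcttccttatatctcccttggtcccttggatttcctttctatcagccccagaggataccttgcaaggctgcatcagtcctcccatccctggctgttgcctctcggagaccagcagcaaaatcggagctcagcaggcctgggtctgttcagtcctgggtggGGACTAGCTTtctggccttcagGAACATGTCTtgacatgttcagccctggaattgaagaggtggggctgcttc
Cdkn1a, downstream start: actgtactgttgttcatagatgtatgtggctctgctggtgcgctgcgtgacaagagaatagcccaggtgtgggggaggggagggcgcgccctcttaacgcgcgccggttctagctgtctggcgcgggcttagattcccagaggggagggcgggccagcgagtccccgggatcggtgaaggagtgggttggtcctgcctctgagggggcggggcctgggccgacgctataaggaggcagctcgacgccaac
Ccng1: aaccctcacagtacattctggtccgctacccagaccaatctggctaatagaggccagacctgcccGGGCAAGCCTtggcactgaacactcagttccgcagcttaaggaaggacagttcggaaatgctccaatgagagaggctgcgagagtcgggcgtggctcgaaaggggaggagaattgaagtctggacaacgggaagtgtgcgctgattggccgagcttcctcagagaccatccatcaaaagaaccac
Mdm2: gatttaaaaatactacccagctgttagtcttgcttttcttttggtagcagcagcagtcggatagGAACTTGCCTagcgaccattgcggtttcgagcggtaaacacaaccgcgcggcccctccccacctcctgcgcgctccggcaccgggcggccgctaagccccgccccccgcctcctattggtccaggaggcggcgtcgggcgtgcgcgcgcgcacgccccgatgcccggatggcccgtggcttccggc

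The upstream Cdkn1a run held 2 decamers, at 73 to 64 and 51 to 42 bases before the start, and the downstream run held none. Ccng1 had 1 decamer at 185 to 176 bases and Mdm2 had 1 at 186 to 177 bases before the start. Gadd45a had 1, GGGCTAGCCC, at 40 to 31 bases before its start. There were 8 windows for 7 of the 9 genes, each of 300 bases and running 50 bases past the start, and no entry for Wee1 and Cdkn1c. Of the 8 windows 4 held a decamer, against 8.36% of the 32851 windows of the whole table. The 4 are windows of Cdkn1a, Ccng1, Mdm2 and Gadd45a, all counted here among the p53 pathway genes. This share is therefore not independent of how the genes were chosen. The E-box CACGTG, the sequence that CLOCK and BMAL1 bind, was at 185 to 180 bases before the Gadd45b start and 142 to 137 bases before the Gadd45g start, and in 7.15% of all windows. The D-box TTATGNAA, read by the PAR bZIP factors and NFIL3, was found before Gadd45a at 95 to 88 bases and in 3.38% of all windows. No member window held CACGTT, a variant of the E-box found in 4.68% of all windows. The cyclic AMP element TGACGTCA was in none of them and in 1.79% of all windows. The nuclear receptor element AGGTCA was absent too, against 16.3% of all windows. Both strands were searched, and no 2 of these motifs overlapped in the member windows. A match describes letters in the window and says nothing of binding in these muscles.

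Total counts per library ran from 8045154 to 11269812. Levels are CPM, counts scaled to one common library total. Differences are log2 fold changes (log2FC) with their standard errors (SE), from the quasi-likelihood test of edgeR over 13560 genes, with Benjamini-Hochberg adjusted p-values and a threshold of 0.05. Arntl, the gene of BMAL1, was not lower in the knockout-labelled samples: its log2FC was 0.24 (SE 0.23, adjusted p 0.725) at rest and 0.20 (SE 0.23, adjusted p 0.689) after exercise. At rest its level was 12.3 ± 2.39 CPM (SD, n = 5) under the vehicle label against 14.5 ± 1.94 CPM under the knockout label. A count over the whole gene does not read a deleted exon, so the label could not be checked in this way and the samples are called knockout-labelled throughout. The 5 defining muscle genes summed to between 53390 and 74670 CPM in every library. Summed slow-fibre genes ranged from 48.4 to 3924 CPM, widely within all 4 groups, and none of the 8 was called in any contrast.

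Cdkn1a was scarce in vehicle muscle and abundant in knockout-labelled muscle. The 5 vehicle libraries at rest had 4.41, 7.17, 6.74, 6.77 and 6.44 CPM, from 38 to 80 counts each. The 5 vehicle libraries after exercise had 12.8, 13.8, 13.8, 17.7 and 14.9 CPM. Every exercised vehicle library was thus above every resting one.

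In knockout-labelled muscle at rest Cdkn1a stood at 88.4, 77.1, 62.5, 129 and 104 CPM, from 565 to 1200 counts. After exercise the knockout-labelled libraries had 88.2, 122, 117, 167 and 112 CPM. The lowest knockout-labelled library, at 62.5 CPM, was well above the highest vehicle library, at 17.7 CPM, while the resting and exercised knockout-labelled libraries overlapped.

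As a description, the resting means were 6.305 ± 1.09 CPM (vehicle) against 92.3 ± 25.7 CPM (knockout-labelled), a fitted fold of 14.6 (95% interval 10.9 to 19.5). After exercise they were 14.6 ± 1.875 and 121.2 ± 28.6 CPM, a fold of 8.29 (6.32 to 10.9). Ordered from the highest log2FC, Cdkn1a was number 4 of 13560 genes at rest and number 8 after exercise. Leaving out any 1 of the 20 libraries moved the log2FC between 3.71 and 3.98 at rest and between 2.91 and 3.14 after exercise.

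The exercise response of Cdkn1a is another contrast than those it was picked by and was tested, but it shares the resting libraries with them, so the test is not independent of the choice. In vehicle muscle Cdkn1a rose 2.31-fold (95% interval 1.735 to 3.07), a log2FC of 1.21 (SE 0.20, adjusted p 0.00407), without overlap between the groups. Cdkn1a was the 1 of the 9 genes called in this contrast, in which 0.804% of all genes tested were called and 0.605% were called higher. Groups did not overlap, with exercise higher, in 1.18% of all genes. The call held in each of the 29 alternative fits, with adjusted p between 3.18e-06 and 0.0168.

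In knockout-labelled muscle the log2FC of Cdkn1a with exercise was 0.39 (SE 0.17), with an adjusted p of 0.9995 and an unadjusted p of 0.0318. Its 95% interval was 1.03-fold to 1.68-fold. At this contrast edgeR called 0 of 13560 genes (0%), DESeq2 also called 0, and 639 genes (4.71%) had an unadjusted p under 0.05. The difference between both exercise responses, the interaction, was -0.82 on the log2 scale (SE 0.26). It equals the genotype difference after exercise minus that at rest, the values that Cdkn1a was picked by, and is likewise given with no test. On the linear scale the mean rise was 8.29 CPM under the vehicle label and 28.9 CPM under the knockout label. The fold was thus larger in vehicle and the added CPM larger in the knockout-labelled group.

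**Figure D1:**
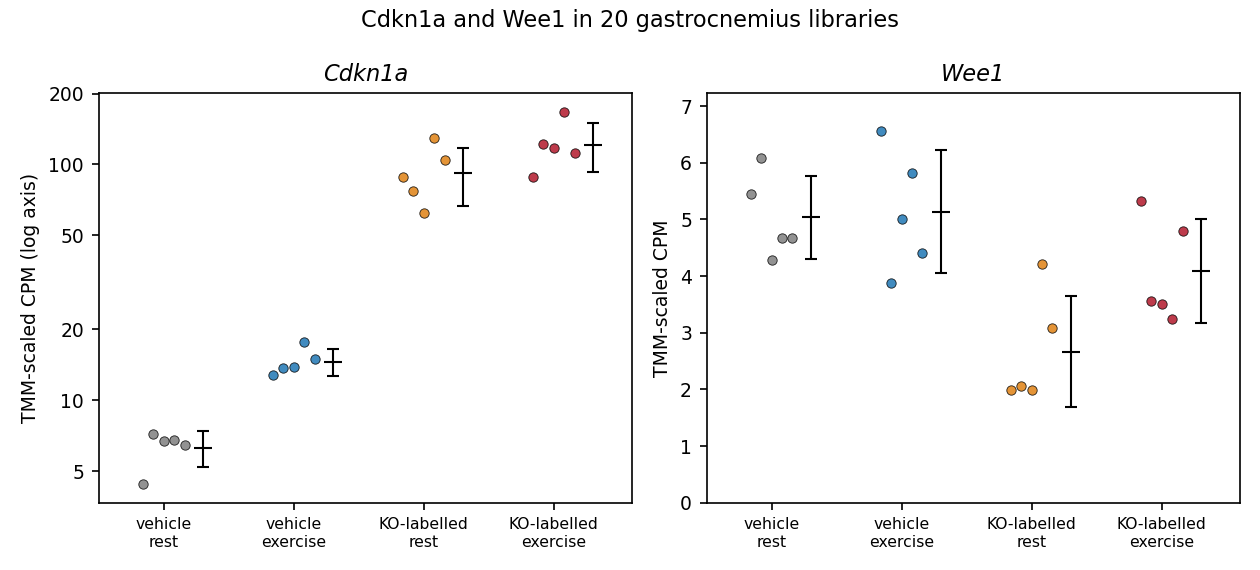
TMM-scaled CPM of Cdkn1a (left, log axis) and Wee1 (right, linear axis) in each library of the 4 groups, with mean ± SD (n = 5) beside the points. Cdkn1a lies between 4.41 and 17.7 CPM in vehicle libraries and between 62.5 and 167 CPM in knockout-labelled libraries, and Wee1 is lowest in the resting knockout-labelled group.

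Cdkn1b encodes p27, the inhibitor that holds quiescent cells out of the cycle, and Cdkn1c encodes the imprinted inhibitor p57. Neither was called in a genotype contrast. Cdkn1b was at 35.6 ± 3.305 CPM in resting vehicle and 32.9 ± 0.730 CPM in resting knockout-labelled samples, a log2FC of -0.12 (SE 0.097, adjusted p 0.664). After exercise its means were 31.4 and 37.7 CPM, a log2FC of 0.26 (SE 0.097, adjusted p 0.122). This difference passed the threshold in the fit without vehicle exercise replicate 5, with 0.34 and an adjusted p of 0.0338.

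Cdkn1c was at 22.2 and 24.05 CPM at rest and at 18.6 and 24.9 CPM after exercise, in vehicle and knockout-labelled muscle respectively. Between the labels its log2FC was 0.11 at rest (SE 0.19, adjusted p 0.856). After exercise it was 0.42 (SE 0.19, adjusted p 0.228). One knockout-labelled library after exercise had 40.05 CPM, while the other 4 of that group were between 16.3 and 26.9 CPM. In GENCODE M21, 625 of the 2039 exonic bases of Cdkn1c lie opposite the antisense gene Gm44732, which had 57 to 218 counts per library. The strand setting of the counting is not given in the sources used here, so reads of Gm44732 in the Cdkn1c row cannot be told apart. The same limit holds for Cdkn1a. Of its 3553 exonic bases, 273 lie opposite AC167363.2, which has no row of that name in the count table.

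The exercise contrasts and the interaction left Cdkn1b and Cdkn1c uncalled as well. The interaction of Cdkn1b was 0.37 (SE 0.14, unadjusted p 0.012, adjusted p 0.78), in a contrast where edgeR called 0 of all genes (0%), DESeq2 called 3, and 5.83% had an unadjusted p under 0.05. Per kb of exon, Cdkn1a had the lowest level of its family in vehicle at rest, 1.775 CPM per kb, against 7.83 for Cdkn1b and 10.9 for Cdkn1c. In knockout-labelled muscle at rest the Cdkn1a level was 26.0 CPM per kb, above 7.225 for Cdkn1b and 11.8 for Cdkn1c.

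Ccng1 encodes cyclin G1, a p53 target that recruits a phosphatase to MDM2, and Mdm2 encodes the ubiquitin ligase that p53 induces and that degrades p53. Neither followed Cdkn1a. Ccng1 was the most abundant of the 9 genes per kb, at 229 CPM per kb in vehicle at rest, and its group means were 805, 800, 791 and 738.5 CPM in the order vehicle at rest, vehicle after exercise, knockout-labelled at rest and knockout-labelled after exercise. Its fold between the labels was 0.982 at rest (95% interval 0.8485 to 1.14) and 0.923 after exercise (0.7975 to 1.07), with adjusted p of 0.95 and 0.587. These intervals leave out a rise of the size seen in Cdkn1a, whose fold was 14.6 at rest and 8.29 after exercise.

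Mdm2 had group means of 52.5, 52.5, 55.9 and 57.9 CPM in the same order. Its fold between the labels was 1.07 (95% interval 0.923 to 1.23, adjusted p 0.758) at rest and 1.10 (0.954 to 1.27, adjusted p 0.484) after exercise. With exercise the Mdm2 fold was 1.00 in vehicle (0.8665 to 1.16) and 1.03 in knockout-labelled muscle (0.895 to 1.19). Knockout exercise replicate 4 was the highest Mdm2 library, at 73.55 CPM, and also the highest Cdkn1a library. It was the highest library of Cdkn1b too, at 43.6 CPM. Its Ccng1 level was 902 CPM, where the highest library had 916 CPM.

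**Figure D2:**
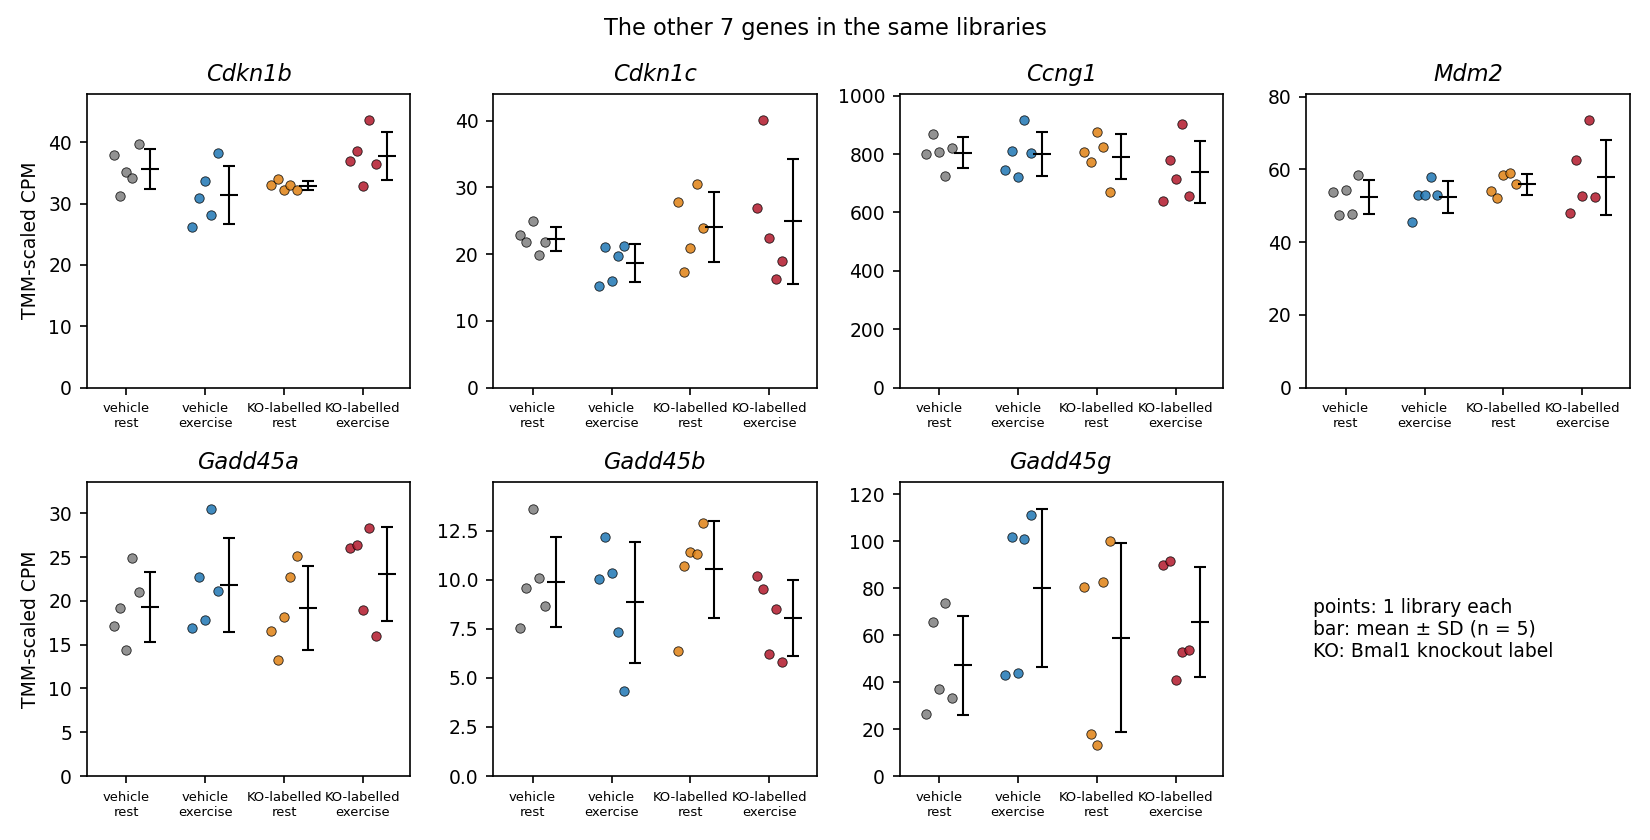
TMM-scaled CPM of the other 7 genes in each library of the 4 groups, each panel from 0, with mean ± SD (n = 5). Groups that differ in genotype label or exercise alone overlap in every panel, and the Gadd45g libraries of the resting knockout-labelled group run from 13.3 to 100.1 CPM.

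Other p53 targets and regulators were read from a list of 34 genes besides the 9, of which 31 had enough counts to be tested. At rest 0 were higher and 1 was lower in knockout-labelled muscle, where 1.8% and 2.06% of all genes tested were, with a median log2FC of -0.026 against 0.0087 over all genes tested. The lower gene was Tigar, a p53-induced phosphatase that restrains glycolysis, which fell from 168 to 113 CPM (log2FC -0.57, SE 0.11, adjusted p 0.00315). Sesn1, a p53-induced stress protein, had 0.54 (SE 0.17, adjusted p 0.0862) and was not called. Trp53 itself, the gene of p53, had 0.36 (SE 0.14, adjusted p 0.169). These 2 were named after their values were seen.

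After exercise 0 of the 31 were higher and 3 were lower in knockout-labelled muscle, against 2.67% and 3.75% of all genes, with a median of -0.061 against 0.015 over all genes. Tigar fell from 166 to 103 CPM (-0.70, SE 0.11, adjusted p 0.000347). Polk, a translesion DNA polymerase, fell from 18.2 to 10.7 CPM (-0.77, SE 0.13, adjusted p 0.000593). Phlda3, a p53-induced inhibitor of AKT signalling, fell from 282 to 177 CPM (-0.68, SE 0.18, adjusted p 0.0287). The Phlda3 call was lost in 4 of the 10 fits without 1 of its libraries (highest adjusted p 0.0844, without knockout exercise replicate 4).

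With exercise in vehicle 1 of the 31 rose and 0 fell, against 0.605% and 0.199% of all genes, with a median of 0.022 against 2.59e-05 over all genes. Btg2, an antiproliferative p53 target that is also an immediate early gene, rose from 11.3 ± 3.97 to 32.1 ± 14.0 CPM (log2FC 1.51, SE 0.32, adjusted p 0.0336). The Btg2 call was lost in 6 of the 10 fits without 1 of its libraries, with adjusted p up to 0.107. Trp53inp1 had 1.28 (SE 0.34, adjusted p 0.0998) and Plk3 1.80 (SE 0.52, adjusted p 0.144), and neither was called; both were named after their values were seen. In knockout-labelled muscle 0 of the 31 were called with exercise. The smallest p-values there belonged to the polymerase gene Polk, with -0.35, the polo-like kinase gene Plk2, with -0.63, and the survival gene Bcl2l1, with 0.46, at an adjusted p of 0.9995 each. For the interaction 0 were called, and the smallest p-values were those of Polk (-0.60, adjusted p 0.723), Plk2 (-0.80, adjusted p 0.8125) and the DNA repair gene Xpc (0.30, adjusted p 0.849).

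**Figure D3:**
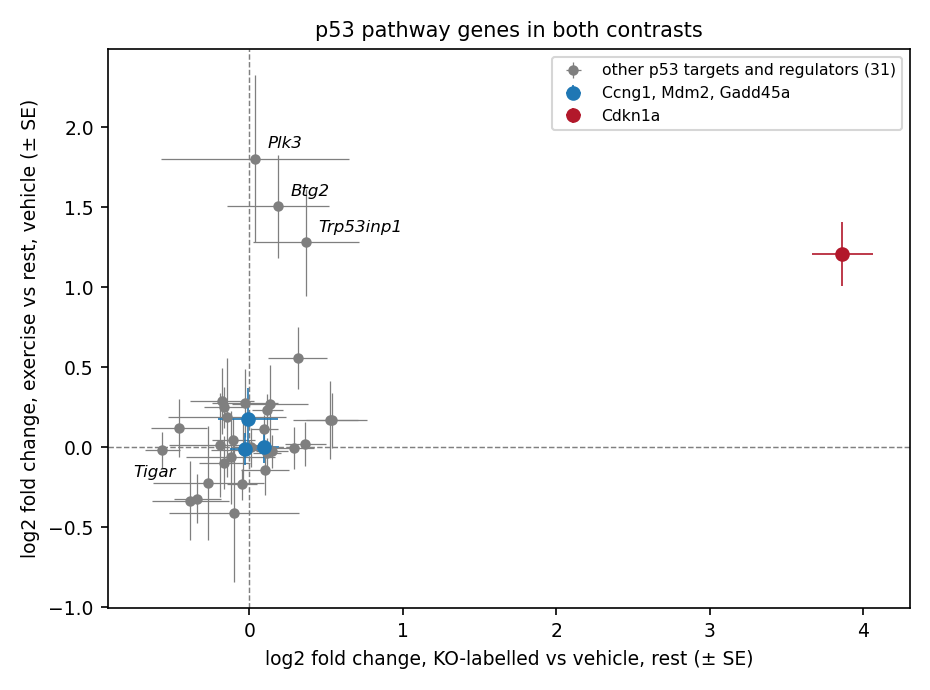
Each point is a gene of the p53 pathway, with its log2FC between knockout-labelled and vehicle muscle at rest (x axis) and between exercise and rest in vehicle muscle (y axis), and bars of 1 SE. Cdkn1a stands at 3.87 and 1.21, while the 31 listed genes lie between -0.57 and 0.54 on the x axis.

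GADD45 proteins are small stress sensors that lack enzyme activity and bind MAP3K4, the top of a p38 and JNK kinase cascade. None of the 3 genes was called in any contrast. Gadd45a had group means of 19.3 ± 3.96, 21.8 ± 5.40, 19.2 ± 4.79 and 23.1 ± 5.37 CPM in the order given above, with log2FC values between the labels of -0.0086 (SE 0.20) at rest and 0.078 (SE 0.20) after exercise. Its 95% intervals allow at most 1.32-fold and 1.40-fold higher levels in the knockout-labelled groups. In GENCODE M21, 337 of its 1764 exonic bases lie opposite E230016M11Rik, which had 73 to 174 counts, so the same limit of strand holds as for Cdkn1c.

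Gadd45b was the least abundant of the 3, with resting levels of 9.90 ± 2.29 CPM (vehicle) and 10.5 ± 2.475 CPM (knockout-labelled). After exercise it was at 8.845 ± 3.07 and 8.05 ± 1.94 CPM. Its largest difference was -0.40 (SE 0.24, adjusted p 0.9995) with exercise in knockout-labelled muscle.

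Gadd45g varied widely between libraries of 1 group. At rest the knockout-labelled libraries had 80.6, 17.9, 13.3, 82.6 and 100.1 CPM, and the vehicle libraries 26.3, 65.75, 37.2, 73.7 and 33.1 CPM. After exercise the vehicle libraries had 43.1, 101.6, 43.7, 100.7 and 111 CPM, and the knockout-labelled ones 89.8, 91.4, 40.9, 52.8 and 53.5 CPM. All 4 groups overlapped. Its fitted biological coefficient of variation was 0.544, the highest of the 9, at percentile 97.8 of all genes tested, where the median gene had 0.163 and Cdkn1a 0.200. The largest Gadd45g difference was 0.76 (SE 0.51, adjusted p 0.753) with exercise in vehicle. Its 95% interval, 0.8015-fold to 3.58-fold, holds both no change and the 2.31-fold rise of Cdkn1a.

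Kinases downstream of GADD45 were read from a list of 11, of which 9 were tested. Map2k6, a kinase that activates p38, fell from 28.0 ± 2.095 CPM in resting vehicle samples to 14.1 ± 2.62 CPM under the knockout label (log2FC -0.99, SE 0.11, adjusted p 3.81e-06). After exercise it fell from 28.6 ± 1.24 to 16.2 ± 1.995 CPM (-0.82, SE 0.11, adjusted p 3.31e-05). At rest 0 were higher and 1 was lower (1.8% and 2.06% of all genes), with a list median of -0.090 against 0.0087 over all genes. After exercise 1 was higher and 2 were lower (2.67% and 3.75% of all genes), with a median of 0.099 against 0.015. The other two were Map2k3, a second p38 activator, at -0.41 (SE 0.099, adjusted p 0.0115), and Mapk8, the JNK1 gene, at 0.38 (SE 0.098, adjusted p 0.0187). The Mapk8 call was lost in 4 of the 10 fits without 1 of its libraries (highest adjusted p 0.0629), and both calls were lost when the fit held the exercised groups alone (0.0629 for Map2k3 and 0.063 for Mapk8). With exercise, under either label, and for the interaction 0 of the 9 were called.

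Wee1 was lower in knockout-labelled muscle at rest. The vehicle libraries had 5.45, 6.09, 4.29, 4.675 and 4.66 CPM, from 35 to 68 counts, and the knockout-labelled libraries 1.99, 2.07, 1.99, 4.205 and 3.09 CPM, from 16 to 39 counts. The groups did not overlap, which held for 2.99% of all genes in this direction, although the highest knockout-labelled library, at 4.205 CPM, was close to the lowest vehicle library, at 4.29 CPM. The fold was 0.532 (95% interval 0.387 to 0.7325), a log2FC of -0.91 (SE 0.22, adjusted p 0.019).

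Wee1 was the 1 of the 8 tested members called at rest, where 3.86% of all genes were called and 2.06% were called lower. Its call rests on few counts, and the gene was chosen with earlier results of these data known. It was lost in 4 of the 10 fits without 1 of its libraries, with adjusted p of 0.0517 without vehicle rest replicate 2 and 0.0557, 0.0553 and 0.0624 without knockout rest replicates 1, 2 and 3. The direction was the same in all 29 alternatives, from -1.14 to -0.82.

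After exercise the vehicle libraries had 6.565, 3.87, 5.01, 5.82 and 4.40 CPM of Wee1 and the knockout-labelled libraries 5.32, 3.56, 3.50, 3.24 and 4.80 CPM. These groups overlapped, and the log2FC was -0.32 (SE 0.21, adjusted p 0.43). None of the 8 tested members was called after exercise, where 6.42% of all genes were called. With exercise Wee1 had 0.61 (SE 0.23, unadjusted p 0.0126, adjusted p 0.9995) in knockout-labelled muscle and 0.024 (SE 0.21, adjusted p 0.992) in vehicle. The interaction was 0.59 (SE 0.31, adjusted p 0.871), so a different effect of the label at rest and after exercise was not shown.

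**Figure D4:**
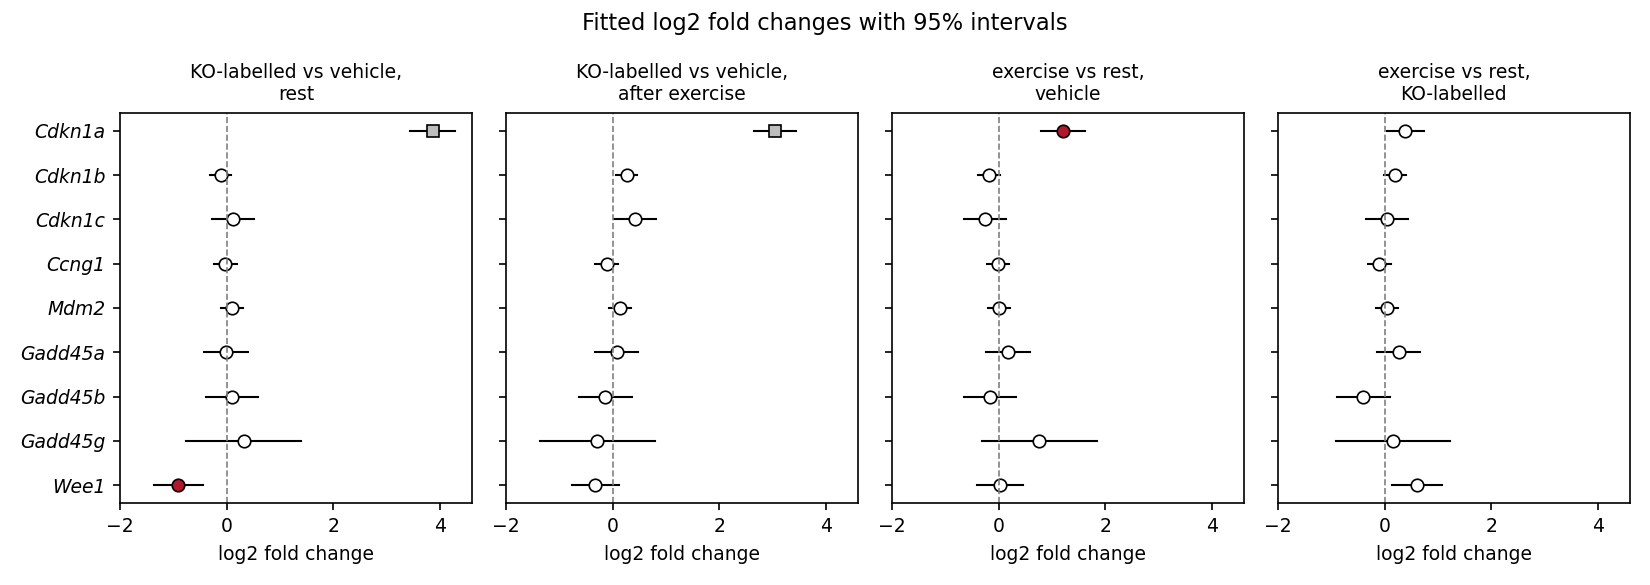
Fitted log2FC values of the 9 genes with 95% intervals in 4 contrasts; filled circles passed the threshold, open circles did not, and squares are the Cdkn1a genotype differences, given with no test. Wee1 at rest and Cdkn1a with exercise in vehicle are the filled circles, and the Gadd45g intervals are the widest.

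The partners and counterparts of these inhibitors in the G1 phase were read from a list of 20 genes, of which 15 were tested. Ccne2, the gene of the G1/S cyclin E2, fell from 8.04 ± 0.788 to 5.25 ± 0.788 CPM at rest in knockout-labelled muscle (log2FC -0.61, SE 0.17, adjusted p 0.0482) and was the 1 gene called, as lower, where 2.06% of all genes were. That call was lost in each of the 10 fits without 1 of its libraries (highest adjusted p 0.136). After exercise 0 were higher and 3 were lower, against 2.67% and 3.75% of all genes: Ccne2 (-0.68, SE 0.17, adjusted p 0.0173), the INK4 inhibitor gene Cdkn2d (-0.56, SE 0.16, adjusted p 0.0335) and the D-type cyclin gene Ccnd3 (-0.48, SE 0.13, adjusted p 0.0236). Leaving out 1 of its libraries ended the Ccne2 call in 2 of 10 fits (adjusted p up to 0.0533), that of Cdkn2d in 6 (up to 0.113) and that of Ccnd3 in 3 (up to 0.0654). The list medians were 0.016 at rest and -0.11 after exercise, where the medians over all genes were 0.0087 and 0.015.

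With exercise none of the 15 was called under either label, nor for the interaction. In vehicle the smallest p-values were those of Rbl1 (-0.52), Ccnd3 (0.20) and Cdkn2d (0.19), with adjusted p of 0.702, 0.717 and 0.822. In knockout-labelled muscle they were those of Cdkn2d (-0.46), Ccnd3 (-0.27) and Cdk4 (-0.13), all at an adjusted p of 0.9995. Cdkn2a, the gene of the senescence inhibitor p16, had at most 4 counts in any library and was not tested.

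Most genes of the G2/M switch, WEE1's target among them, were below the filter on low counts. Of 10 genes of the G2/M switch 4 were tested, Cdc25a, Cdc25b, Pkmyt1 and Chek2, and none was called in any contrast. Cdk1, the kinase that WEE1 inhibits, had at most 4 counts per library, and its partner Ccnb1 at most 1. Of 8 genes of dividing cells 2 passed the filter, and the 8 summed to between 5.55 and 10.8 CPM in every library. Markers of satellite cells summed to between 19.5 and 33.5 CPM and those of macrophages to between 12.9 and 29.0 CPM, with no gene of either list called in any contrast. Of 5 blood genes, Hba-a2, a near-identical copy of Hba-a1 whose reads could be split between them, was called lower in knockout-labelled muscle after exercise (log2FC -1.90, SE 0.48, adjusted p 0.0198), and the 5 summed to between 57.7 and 366 CPM in exercised vehicle and between 48.15 and 138.5 CPM in exercised knockout-labelled libraries. Schwann cell markers summed to between 17.6 and 128 CPM in exercised vehicle and to between 31.7 and 72.9 CPM in the knockout-labelled groups, with none called. The part of blood and nerve RNA in the results was not tested. In bulk muscle, fewer cells of a type and less RNA per cell cannot be told apart.

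Genes that mark denervated or unused muscle were read from a list of 16, of which 14 were tested, since Cdkn1a and Gadd45a are known to rise in that state. None was called at rest, where 1.8% of all genes were called higher and 2.06% lower. The list median there was 0.080 against 0.0087 over all genes, with a lowest adjusted p of 0.0692. Chrna1, the acetylcholine receptor alpha subunit, was not called at rest and is named for its call after exercise. Its resting levels were 22.8 ± 4.35 CPM (knockout-labelled) and 12.0 ± 1.84 CPM (vehicle). After exercise Chrna1 was the 1 of the 14 genes called, as higher in knockout-labelled muscle. Of all genes 2.67% were called higher there and 3.75% lower. Its level was 35.0 ± 19.0 CPM against 11.8 ± 2.22 CPM (log2FC 1.56, SE 0.27, adjusted p 0.00111). The list median after exercise was -0.26 against 0.015. Of 10 senescence-associated genes 6 were tested and none was called in any contrast. Between the labels 3.86% of all genes were called at rest and 6.42% after exercise. The medians of these 6 were -0.36 at rest and -0.18 after exercise, against 0.0087 and 0.015 over all genes. With exercise and for the interaction no gene of either list was called.

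Across the 20 libraries the log2 levels most like those of Cdkn1a, among 11688 genes with a mean of at least 1 on the log2 CPM scale, were those of Rab11b, Agpat3, Slc9a2, Tead4 and Clock, with Pearson correlations of 0.9625, 0.95, 0.941, 0.94 and 0.939. These values describe the difference between the labels, which all 5 genes share. Clock, the gene of BMAL1's partner, had 14.6 ± 1.73 CPM at rest under the vehicle label against 37.2 ± 6.92 CPM under the knockout label. Tead4, a transcription factor gene, was at 9.75 ± 1.71 and 39.5 ± 7.155 CPM. With each library set relative to its group mean, the same genes had correlations with Cdkn1a of 0.55, -0.22, 0.36, 0.45 and 0.27. The genes most like Cdkn1a on that second measure were Mir1b, Kdelc2, Chchd6, Tsn and Copz2, at 0.84, 0.80, 0.78, 0.76 and 0.76. They were picked as the highest values among 11688 genes over 20 libraries, and whether they vary with Cdkn1a was not tested. Mir1b was scarce, with group means from 1.88 to 3.32 CPM.

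Within groups, some of the 9 genes varied with the slow-fibre content of the sample. The slow-fibre score is the mean log2 CPM of 8 slow-fibre genes such as Myh7 and Tnnt1, and it ran from 0.10 to 8.64. Over the 20 libraries, with every value set relative to its group mean, Mdm2 was lower where the score was higher. Its Pearson r was -0.68 (permutation p 0.00625, adjusted p 0.0281 over 9 genes) and its Spearman rho -0.66 (permutation p 0.00848, adjusted p 0.0382). Gadd45a had r of -0.67 (permutation p 0.00365, adjusted p 0.0281) and rho of -0.725 (permutation p 0.00098, adjusted p 0.00882). Without the 2 libraries farthest from the median score r was -0.73 for Mdm2 and -0.74 for Gadd45a.

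Ccng1 had r of -0.555 (permutation p 0.0298, adjusted p 0.0893) and Cdkn1a -0.43 (permutation p 0.0559, adjusted p 0.126). Their Spearman rho was -0.52 (permutation p 0.0372, adjusted p 0.0838) and -0.47 (permutation p 0.0334, adjusted p 0.0838). Neither gene passed the adjusted threshold by either measure. Without the 2 libraries farthest from the median score r was -0.64 for Ccng1 and -0.545 for Cdkn1a. Wee1 was the gene with a positive r, 0.205 (permutation p 0.39). Of the 36 pairs among the 9 genes none passed the threshold after adjustment over the pairs. With the score added to the fit, Cdkn1a kept its call with exercise in vehicle and Wee1 its call at rest.

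**Figure D5:**
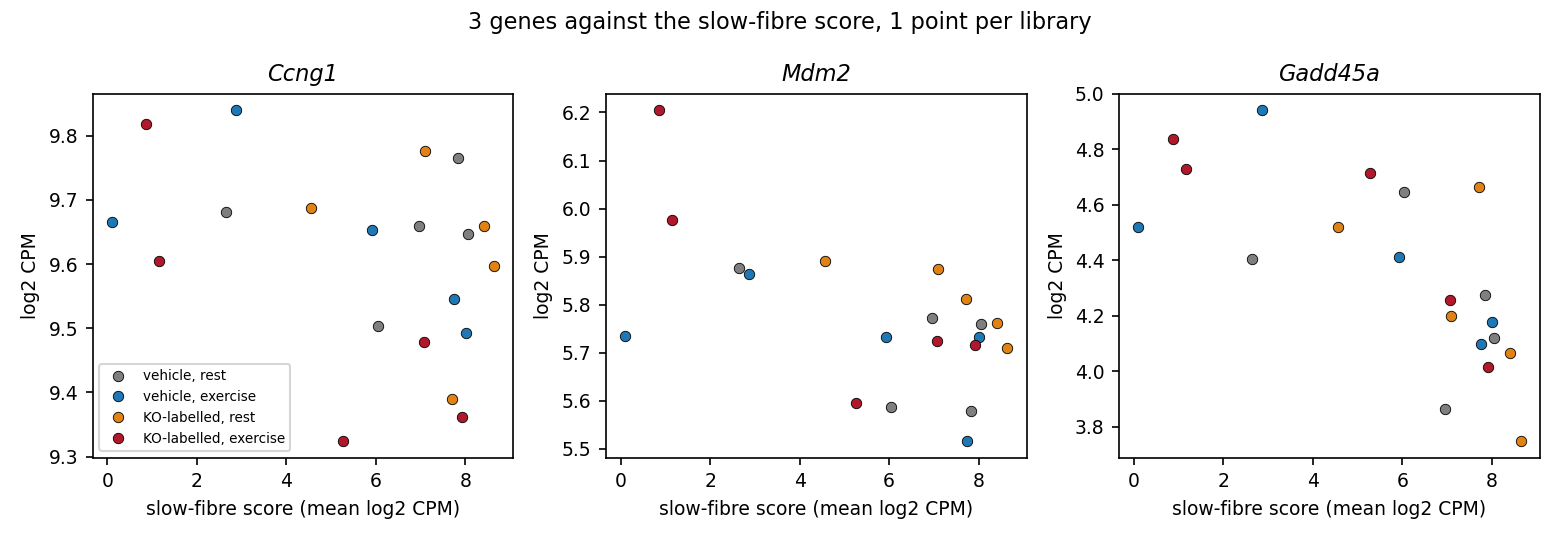
log2 CPM of Ccng1, Mdm2 and Gadd45a against the slow-fibre score, with 1 point per library coloured by group. The score runs from 0.10 to 8.64, and the libraries with low scores belong to 3 of the groups and mostly have higher Mdm2 and Gadd45a.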

How the data were processed

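RNA-seq of 20 gastrocnemius samples came as 1 deposited table of raw, whole-number read counts, with genes given by symbol. The submitters' processing notes name Partek, STAR 2.7.8a, DESeq2 and the builds mm10 and GRCm39, with no role for each build. The counting program, annotation and strand setting are not given in the sources used here. Groups came from the treatment labels. The descriptions of the exercised knockout samples speak of training and their titles and treatments of acute exercise; acute exercise was taken.

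Genes were filtered with filterByExpr (minimum 10 counts), which left 13560 genes with 99.83% of counts. Scaling between libraries used TMM factors, and counts were fitted with the robust quasi-likelihood model of edgeR 4.0.16 (R 4.3.3) on all 20 samples with 1 mean per group. Benjamini-Hochberg adjustment ran over all genes tested, threshold 0.05. Intervals are 95% intervals of the fit, and log2 CPM used a prior count of 2. Correlations over libraries used 100000 permutations within groups, two-sided. The fit was tested on simulated data. The alternatives were DESeq2 1.42.0, other scalings and filters, the groups of a contrast alone, a replicate block, a slow-fibre score and leaving out each library.

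The members and lists were chosen with earlier results of these data known. All 9 members were named in every contrast. Of each list, up to 5 called genes with the largest log2 fold change were named, and for p53 and cell cycle lists up to 3 with the smallest p where none was called. GENCODE M21 (GRCm38) gave exon lengths and overlaps, and RefSeq GRCm38.p6 the sequences. PCR reads are not independent molecules.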

Additional observations from a re-analysis of the deposited data

Results flagged for a closer look

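The lowest Cdkn1a level in vehicle muscle at rest, 4.41 CPM in replicate 1, stood apart from the other 4 libraries of its group, which lay between 6.44 and 7.17 CPM. The gap was 0.7365 of the group's range, above Dixon's 95% critical value of 0.710 for 5 samples. It was the 1 library so marked among 36 groups of 5 (9 genes in 4 groups), where chance marks about 1 group in 20. Without it the exercise response of Cdkn1a in vehicle was 1.10 on the log2 scale, with an edgeR adjusted p of 0.0136, and still passed the threshold.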

How the results depend on the processing

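Of 1296 alternative values of the 45 log2 fold changes of the 9 genes, 1236 were rated the same and 55, in 13 of the 45, changed sign. None of those 55 was called, and the largest had a main value of 0.17 in size. The same means an unchanged direction and side of the threshold. For the Cdkn1a genotype differences, given with no test, it means an unchanged direction and a shift below the pooled SD of log2 CPM, 0.305. The Cdkn1a interaction, also given with no test, was rated here by its adjusted p. Calls were lost 4 times (Wee1 at rest) and gained once (Cdkn1b after exercise). The cause of these changes was not tested. Among the listed genes, the calls of Phlda3 after exercise, Ccne2 at rest and Btg2 were also lost without the filter (adjusted p 0.083, 0.0638 and 0.0769), those of Cdkn2d, Ccnd3 and Btg2 with library size only, and those of Cdkn2d, Ccne2, Map2k3, Mapk8 and Btg2 with the groups of the contrast alone. Depth limits Wee1, with 16 to 68 counts per library, and genes such as Cdk1 that were not tested.

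Mdm2 with exercise in vehicle was -0.000246 with RLE size factors, -0.028 with library size only, -0.022 with upper-quartile scaling, -0.0074 with the stricter filter, -0.0017 with the groups of the contrast alone, -0.000011 with DESeq2 and -0.052 with the slow-fibre score, and -0.040 to 0.044 without 1 library. With library size only, Gadd45a between the labels at rest was 0.0088 and Wee1 with exercise in vehicle -0.0060. With the slow-fibre score, Ccng1 and Gadd45a at rest were 0.0017 and 0.067, Cdkn1c, Mdm2 and Gadd45g with exercise in knockout-labelled muscle -0.095, -0.072 and -0.092, and the interactions of Mdm2 and Gadd45a -0.020 and -0.035.

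Without 1 library in turn the ranges were: between the labels at rest, Ccng1 -0.066 to 0.028 and Gadd45a -0.13 to 0.096; between the labels after exercise, Gadd45a -0.012 to 0.23 and Gadd45b -0.32 to 0.0044; with exercise in vehicle, Ccng1 -0.063 to 0.022, Gadd45b -0.31 to 0.013 and Wee1 -0.085 to 0.11; with exercise in knockout-labelled muscle, Cdkn1c -0.19 to 0.17, Mdm2 -0.052 to 0.10 and Gadd45g -0.098 to 0.44; for the interaction, Mdm2 -0.053 to 0.11 and Gadd45a -0.019 to 0.24. The members called ran from 0 to 1 at rest and from 0 to 1 after exercise.

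Over all genes, the calls between the labels were 523 at rest, 850 with the slow-fibre score; and 870 after exercise, 1419 with the score and 567 with the groups of the contrast alone. With exercise in vehicle 109 genes were called, 248 with the score, 61 with the groups of the contrast alone, 195 with DESeq2 and 52 to 135 without 1 library. With exercise in knockout-labelled muscle 0 were called and 8 with the score. For the interaction 0 were called, 3 with DESeq2 and 0 to 1 without 1 library. After exercise 362 genes were higher and 508 lower in knockout-labelled muscle, against 449 and 396 with library size only.

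Replicate numbers are shared by the groups. The deviations of the 30 same-numbered pairs had correlations from -0.45 to 0.44 (median 0.0887), above 0.1 in 15 pairs. Of 20 libraries 4 correlated best with their own number. With the replicate block Wee1 at rest was -0.93 (adjusted p 0.0237), Cdkn1a with exercise in vehicle 1.20 (adjusted p 0.000279), Mdm2 with exercise in vehicle -0.0060 and Gadd45a at rest 0.000935. The block gave 518, 824, 100, 0 and 0 genes called in the 5 contrasts.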
